A study of Mus musculus with 2 samples.

Results

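The genes described here are 10 transcription factors and cofactors known from endothelial cells: the SOXF factors Sox7, Sox17 and Sox18, the ETS factors Erg, Fli1 and Ets1, and the TAL1 group of Tal1, Lyl1, Lmo2 and Gata2. They were taken by symbol from the gene names in the array files. All 10 were on the array, with 13 of 39429 probes, and they are 10 of 29924 genes by name. Ureters of E12.5 wildtype NMRI embryos (a mouse outbred strain) were kept as explants for 18 h with 10 µM BIO or with the solvent DMSO alone at 2 parts per 1000. BIO is a small molecule that inhibits the kinase GSK3 and thereby activates canonical WNT signaling, and these cultures asked what that activation does to the RNA of the early ureter. Both groups carried no transgene or deletion, each RNA came from a pool of ureters whose sex was not determined, and the medium held no serum. Each of 2 two-color arrays compared 1 BIO pool with 1 control pool, with BIO in red on array 1 and in green on array 2, so that n = 2 throughout.

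Endothelial cells line blood vessels and are specified by a small set of factors that act on each other's genes. SOXF proteins bind DNA through an HMG box, are needed for arterial identity and vessel integrity, and can partly replace each other. ETS proteins bind a GGAA core that occurs in many endothelial enhancers, and Erg, Fli1 and Ets1 are members with high expression in endothelium. TAL1 and LYL1 are related basic helix-loop-helix proteins that bind E-boxes with E-proteins, LMO2 is a bridging protein without DNA binding of its own, and GATA2 is a zinc finger protein, and these can sit in 1 complex in endothelial and blood-forming cells. The whole ureter also holds mesenchyme, epithelium, blood cells and nerves.

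The readout of each gene is the hybridization to 60-base probes, and the probes of related genes have to be distinct for their ratios to be read apart. Over the 13 probes, the longest run of bases shared by probes of different genes was 8. The probes of the SOXF genes, which have an alike HMG box, are shown by their first 30 bases, 5′ to 3′ (build mm9).
Sox7, chr14:64569419-64569478, + strand: agtcccggatggatattaataatctcgtga
Sox17, chr1:4481503-4481562, - strand: ctcactgacttattccatttcttgaaagtg
Sox17, second probe, chr1:4481038-4481097, - strand: cccacttcccacaaaatttgcctttaattc
Sox18, chr2:181404789-181404848, - strand: cttcctttcgcatatgtatgttagggtatg

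The second probe of Ets1 is shown whole because it reads the DNA-binding ETS domain itself. In capitals are the codons of the pair of arginines that touch the GGAA core, which start at bases 33 and 42 of the probe, and no stop codon lies in this frame.
Ets1, second probe, chr9:32561826-32561885, + strand: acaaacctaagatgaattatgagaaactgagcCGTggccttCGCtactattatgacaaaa

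All 10 genes were lower with BIO on both arrays. The 10 genes fell at an adjusted p below 0.05 (limma), against 14.8% of all 21598 tested genes that fell. Values are log2 ratios of BIO over control per array, with the dyes of array 2 turned, and signals are the processed intensities of the scanner software in arbitrary units. Processed signals of both BIO samples lay below those of both control samples for all 10, which held for 26.4% of tested genes. Erg was tested only through its control channels, so the filter itself favors a fall of Erg in both counts. By the stricter rule of at least 2-fold lower on both arrays with a brighter channel of at least 100, 7 of 10 passed, against 2.12% of tested genes. With the rounded fold values of the deposited score table in place of the scanner intensities, 0 of 10 passed (limma adjusted p from 0.0705 to 0.229), though each ratio was below 0. Over the 10 genes the median log2 ratio was -1.83 on array 1 and -1.54 on array 2, and over all tested genes it was -0.03 and 0.00. In these bulk samples fewer endothelial cells and less of an RNA per cell cannot be told apart. In the 4 channels, 70.1% to 80.9% of gene spots stood well above background, and the green channel had the higher share on each array. Labels of the treatment were checked by the WNT targets Axin2, Sp5, Nkd1 and Lef1, of which 4 of 4 rose (limma), by 1.07 to 2.80 in log2 ratio, whereas 9.14% of tested genes rose.

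**Figure D1:**
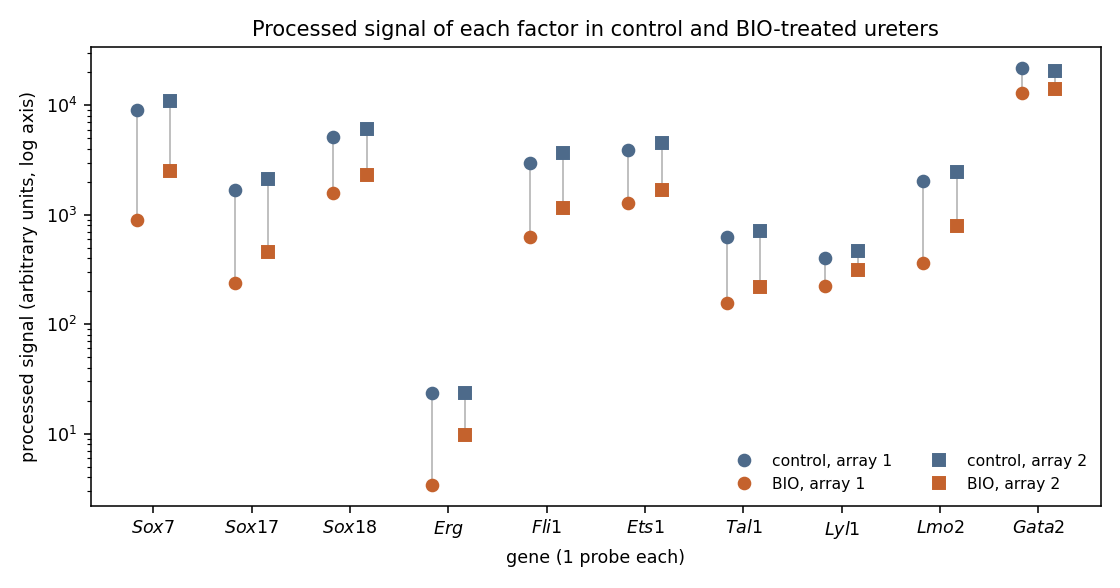
Processed signal (log axis) of the probe that represents each of the 10 genes, control in blue and BIO in orange, circles for array 1 and squares for array 2, with a line joining the channels of an array. BIO lies below control for each gene on each array, and levels are not comparable between genes because probes differ.

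Sox7, needed in vessel branching and arterial fate, had the largest fall by the brightest probe of each gene. Its processed signal was 8995 in control and 888 in BIO on array 1, and 10875 and 2504 on array 2. The groups did not overlap, and the BIO signal of array 2 was the higher of both BIO signals. The log2 ratios were -3.35 and -2.08, which average to -2.72 ± 0.25 (SE, n = 2; adjusted p = 0.000241, limma), or 6.57-fold lower. Sox7 was the gene in rank 7 from the lowest of 21598 by its mean ratio.

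Sox17, a SOXF factor that acts in arterial endothelium and also in endoderm, fell on both of its probes. The brighter probe gave 1673 in control and 239.7 in BIO on array 1, and 2133 and 457 on array 2. These are log2 ratios of -2.76 and -2.20, with a mean of -2.48 ± 0.15 (SE) and an adjusted p of 4.47e-05 (limma), or 5.57-fold lower. The second probe gave -3.12 and -2.34, with a mean of -2.73 ± 0.17 and an adjusted p of 6.36e-05 (limma), so both probes moved the same way. Sox18, required for lymphatic and vascular development, had signals of 5175 and 1576 on array 1 and 6050 and 2289 on array 2. Its log2 ratios were -1.70 and -1.41, with a mean of -1.56 ± 0.12 and an adjusted p of 0.000127 (limma), or 2.94-fold lower. Sox18 thus fell less than Sox7 and Sox17 on both arrays.

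**Figure D2:**
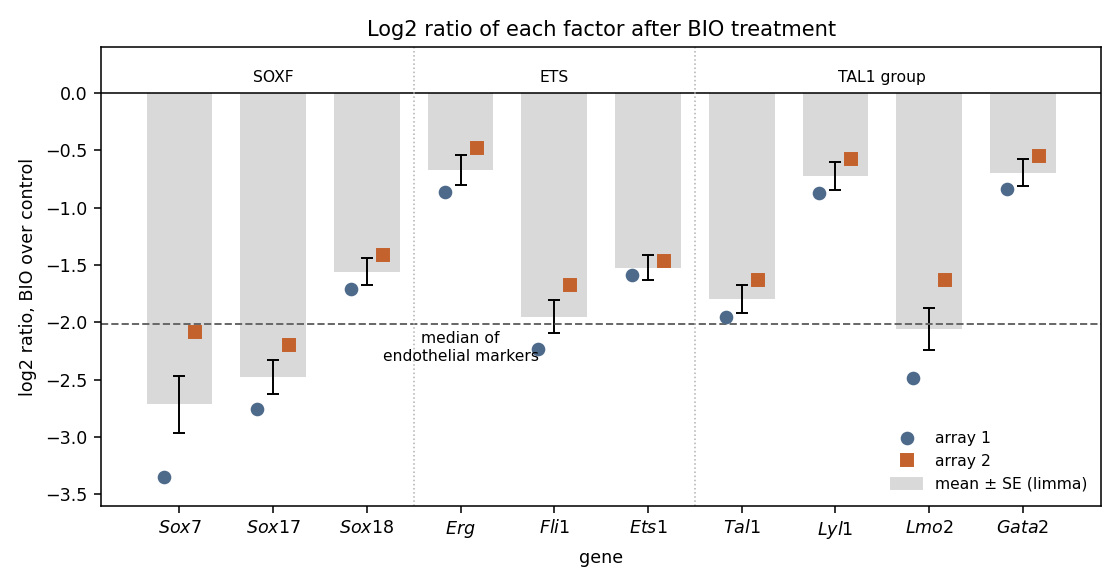
Log2 ratio of BIO over control for the 10 genes, array 1 as blue circles and array 2 as orange squares, with bars for the mean and error bars for its SE (limma). Each bar is below 0, with means from -2.72 for Sox7 to -0.67 for Erg, and the dashed line is the median of 12 endothelial markers.

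Of the ETS factors, Fli1 acts in endothelial and megakaryocyte genes, and it fell more than Ets1 on both arrays. Its processed signal (NM_008026, probe at chr9:32229857-32229916) was 2949 in control and 620 in BIO on array 1, and 3698 and 1163 on array 2. The log2 ratios were -2.23 and -1.67, with a mean of -1.95 ± 0.14 (SE) and an adjusted p of 0.000113 (limma), or 3.87-fold lower. Control and BIO signals of Fli1 were apart on both arrays.

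Ets1, an ETS factor of endothelium and lymphocytes that is also found in mesenchyme, fell on its pair of probes. The brighter probe (chr9:32564860-32564919) gave 3939 in control and 1286 in BIO on array 1, and 4515 and 1685 on array 2. Its log2 ratios were -1.58 and -1.46, the closest agreement between arrays among the 10 genes, with a mean of -1.52 ± 0.11 and an adjusted p of 9.92e-05 (limma). The probe in the ETS domain, printed above, gave 248.8 and 91.1 on array 1 and 285 and 132 on array 2. Its log2 ratios were -1.36 and -1.03, and its mean of -1.19 ± 0.12 (adjusted p = 0.000389, limma) was in the same direction.

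Erg, an ETS factor that keeps endothelial identity, was read by dim probes only. Its brighter probe (NM_001302152, chr16:95581954-95582013) had a processed signal of 23.5 in control and 3.40 in BIO on array 1, and 23.6 and 9.63 on array 2. The BIO channel was well above background on 1 of 2 arrays, while the control channel was so on both. The log2 ratios were -0.86 and -0.48, with a mean of -0.67 ± 0.13 (SE) and an adjusted p of 0.00708 (limma). The offset of 50 added to all intensities draws the ratio of such a dim probe toward 0, and with an offset of 16 it was -1.03 (adjusted p = 0.00819, limma). The second probe of Erg (chr16:95581811-95581870) had signals of 6.09 and 2.67 on array 1 and 7.92 and 1.87 on array 2 and was not tested. The size of the fall of Erg is therefore known less well than that of the other 9 genes.

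Tal1, a master regulator of blood and endothelial precursors, fell on both arrays. Its processed signal (NM_001287388, probe at chr4:114744219-114744278) was 627 in control and 157 in BIO on array 1, and 718 and 219 on array 2. The log2 ratios were -1.96 and -1.63, with a mean of -1.79 ± 0.12 (SE) and an adjusted p of 7.91e-05 (limma), or 3.47-fold lower. Lmo2, which bridges TAL1 and GATA proteins, had signals of 2047 and 366 on array 1 and 2483 and 787 on array 2. Its log2 ratios were -2.48 and -1.63, with a mean of -2.06 ± 0.18 and an adjusted p of 0.000227 (limma), or 4.16-fold lower. Its probe lies at chr2:103821857-103821916, and no sample of the one group overlapped with the other.

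Lyl1, the paralog of Tal1, fell less. Its signal (NM_008535, probe at chr8:87228531-87228590) was 399.9 in control and 225 in BIO on array 1, and 470.2 and 315 on array 2. The log2 ratios were -0.87 and -0.58, with a mean of -0.72 ± 0.12 (SE) and an adjusted p of 0.00375 (limma), or 1.65-fold lower. Gata2, which also has a known role in the urogenital tract outside vessels, had signals of 21882 and 12982 on array 1 and 20582 and 14128 on array 2. Its log2 ratios were -0.84 and -0.54, with a mean of -0.69 ± 0.12 and an adjusted p of 0.00463 (limma), or 1.62-fold lower. With median centering in place of loess, Gata2 no longer passed (mean -0.54, adjusted p = 0.0835, limma). The paper reports Gata2 RNA in the ureteric mesenchyme of control embryos at a later stage, by in situ hybridization. Which cells gave the Gata2 signal here was not tested. Lyl1 and Gata2 failed the 2-fold rule by their ratios on both arrays, while Erg could not pass, since its signals lay under the minimum of 100 and the floor of 15 capped its ratio.

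Ordered by mean ratio, the genes were Sox7, Sox17, Lmo2, Fli1, Tal1, Sox18, Ets1, Lyl1, Gata2 and Erg. Since both genes of a pair were read on the same arrays, neighbours were compared within each array, with no test. The order came from the mean of these same arrays, so at least 1 array had to follow it in each pair. For 5 of 9 neighbour pairs the difference had 1 sign on both arrays, with -0.72 and -0.88 for Ets1 against Lyl1, -0.27 and -0.57 for Sox17 against Lmo2, and -0.25 and -0.22 for Tal1 against Sox18. The differences were -0.27 and -0.04 for Fli1 against Tal1 and -0.03 on both arrays for Lyl1 against Gata2. For these pairs the gap between the means was 0.59 and 0.12 of the summed SEs, so their order is not settled either. The other 4 pairs (Sox7 and Sox17, Lmo2 and Fli1, Sox18 and Ets1, Gata2 and Erg) changed sign between the arrays, so their order is not settled, and the place of Erg depends on the offset. On array 1 the ratio was lower than on array 2 for all 10 genes, with a difference of -1.27 for Sox7 to -0.12 for Ets1 and a median of -0.35. The same held for 11 of 12 endothelial markers (median -0.50) and for 58.6% of all tested genes (median -0.05). The arrays differ in the pools of ureters and in the dye of the BIO RNA, and these cannot be told apart.

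**Figure D3:**
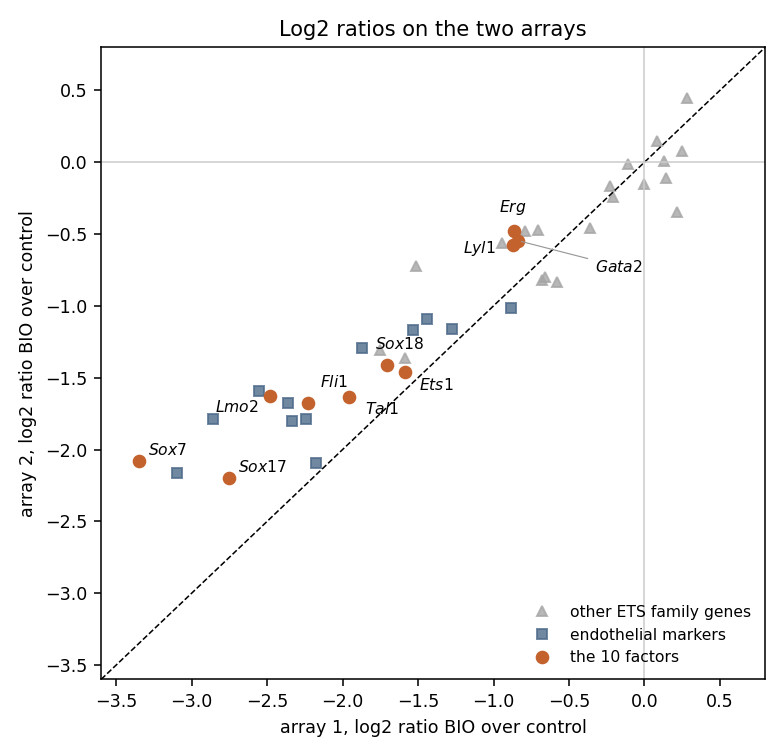
Log2 ratio of BIO over control on array 1 (x axis) against array 2 (y axis) for the 10 genes in orange, 12 endothelial markers in blue and 20 tested other ETS family genes in gray, with the line of equal values dashed. The 10 genes lie above the line, since array 1 gave the lower ratio for each, and 9 of the other ETS genes did not pass the test.

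Endothelial markers moved with these genes. Of 12 markers, among them Cdh5, Pecam1 and Kdr, 12 were tested and 12 fell, with a median log2 ratio of -2.21 on array 1 and -1.63 on array 2. The log2 ratio was -2.63 for Kdr (a VEGF receptor), -2.32 for Cdh5 (the endothelial cadherin), -2.13 for Pecam1 and -2.07 for Emcn (endomucin, a surface protein of endothelium). The summed processed signal of the list was 39126 and 47763 in control and 7663 and 14198 in BIO, and none of the 12 was at 0. Against the marker median, 3 of 10 genes were lower on both arrays (Sox7 and Sox17 clearly, Fli1 by -0.02 and -0.04 only) and 6 were higher on both. Lyl1 and Gata2 were 1.06 to 1.37 higher than that median, and for Erg the offset sets the size of the difference. Kdr rests on its brighter probe, since its second probe gave -0.94. With the mean of all tested probes the marker medians were -2.10 and -1.57, and 12 of 12 fell. What part a loss of endothelial cells has in these values was not tested.

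Genes often named as targets of these factors were lower too. Of 9 endothelial target genes, 8 fell and 0 rose, with a median of -1.58. The log2 ratio was -2.17 for Nos3 (endothelial nitric oxide synthase), -1.94 for Flt1 (a VEGF receptor), -1.84 for Notch4 and -1.83 for the Notch ligand Dll4. Other probes of Flt1 gave -1.45 and -0.34, with a mean over probes of -1.24. Vwf had a log2 ratio of -0.03 (adjusted p = 0.895, limma) at signals of 34.2 to 55.3. Of 15 further endothelial transcription factors, 11 fell and 0 rose, with a median of -0.53. Their lowest ratios were -2.63 for Klf2 (a flow-responsive factor), -1.96 for Hey1 (a Notch target), -1.93 for Hhex and -1.88 for Epas1 (a hypoxia factor). Other probes of Epas1 gave -1.45 and -0.15, with a mean over probes of -1.16. Prox1, the lymphatic factor, had 0.11 (adjusted p = 0.509, limma). The counts here compare with the 14.8% of all tested genes.

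Of the rest of the ETS family, 23 genes, 20 were tested, of which 10 fell, 1 rose and 9 passed in neither direction, against 14.8% fallen and 9.14% risen among all tested genes. Their median was -0.32, nearer to 0 than that of the 10 genes. Those that fell include genes not tied to endothelium. The FGF-responsive Etv5 and Etv4 had log2 ratios of -1.53 and -0.75, and the epithelial factors Ehf and Elf5 had -1.48 and -1.12. The others that fell were Ets2 (-0.75), Etv1 (-0.73), Spi1 (PU.1 of myeloid cells, -0.71), Elk3 (-0.63), Elf1 (-0.59) and Elk1 (-0.41). Other probes of Elk3 gave -0.33 and -0.35, with a mean over probes of -0.44. Spi1 was dim, at signals of 36.9 to 87.8. The gene that rose was Spdef, by 0.37, at signals of only 49.0 to 81.2, and it did not pass with median centering (adjusted p = 0.531) or without the filter on dim probes (adjusted p = 0.0541, limma). Elk1, with a value of -0.05 under median centering, did not pass in 5 of 6 alternatives. Etv2, Spib and Spic were not well above background.

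Of 12 partner genes of the TAL1 group, 4 fell and 2 rose, with a median of -0.22, against 14.8% fallen and 9.14% risen among all tested genes. Ldb2, a LIM domain binding protein of the same kind as Ldb1, had a log2 ratio of -0.91, the corepressor Cbfa2t3 -0.83, Lmo4 -0.73 and Ssbp3 -0.44. A second probe of Cbfa2t3 gave -1.41, with a mean over probes of -1.12. Ssbp3 did not pass with the processed signals or median centering, nor Lmo4 with median centering. Ldb1, the usual partner of LMO2, had -0.01 (adjusted p = 0.95, limma), and the E-proteins Tcf3 and Tcf4 had -0.02 and -0.25. Runx1, a factor of blood-forming cells and several other cell types, rose by 1.13 ± 0.11 (SE; adjusted p = 0.000354, limma). Its signal was 243 in control and 656 in BIO on array 1, and 225 and 493 on array 2, so that Runx1 lay opposite to Tal1 and Lmo2 on each array. A second Runx1 probe gave 0.46. The E-protein Tcf12 rose by 0.36 (adjusted p = 0.0452, limma), a call lost in 4 of 6 alternatives. Of 5 other GATA genes, 1 fell (Gata6, -0.39, adjusted p = 0.0420, limma, lost in 4 of 6 alternatives), and Gata3 had -0.10.

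**Figure D4:**
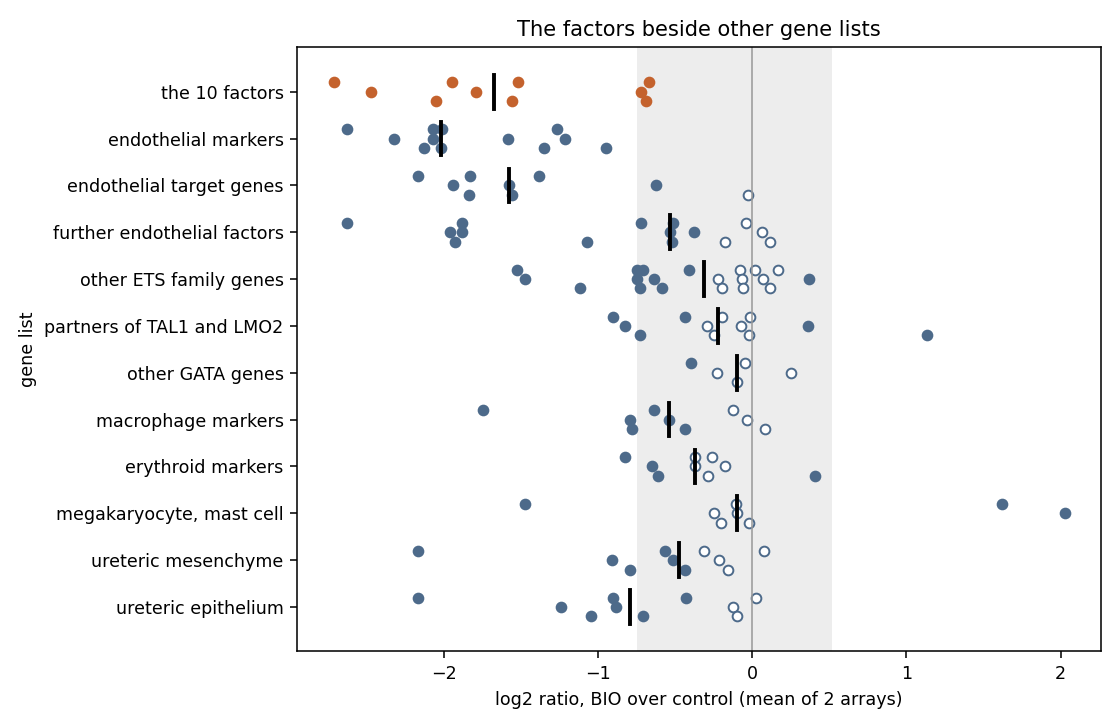
Mean log2 ratio of BIO over control of each tested gene in the lists on the y axis; filled points passed the test (limma adjusted p below 0.05), open points did not, and black bars are medians. The gray band runs from the 5th to the 95th percentile of all tested genes, and 7 of the 10 factors and all 12 endothelial markers lie to its left.

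Markers of other cell types that hold some of these factors were set beside them. Among all tested genes 14.8% fell and 9.14% rose. Of 10 macrophage markers 9 were tested and 6 fell, led by Cx3cr1 (-1.75), Aif1 (-0.79), Ptprc (-0.78) and Csf1r (-0.64), and Fcgr1 was not well above background. Other probes of Csf1r gave -0.66 and -0.09. Adgre1 (-0.04), Cd68 (-0.12) and Mrc1 (0.08) did not pass the test. The summed signal of the macrophage markers was 8025 and 9102 in control and 5320 and 7760 in BIO. Of 9 erythroid markers 3 fell (Epor, -0.83, Hba-a1, -0.65, and Hbb-y, -0.61) and 1 rose (Tfrc, 0.40), of which Hbb-y and Tfrc were each lost in 4 of 6 alternatives, with summed signals of 191217 and 217451 in control and 143440 and 119908 in BIO. Of 8 megakaryocyte and mast cell markers, Kit fell (-1.48), while Pf4 (a platelet chemokine) rose by 2.03 and Hdc (histidine decarboxylase) by 1.62. Summed, these 8 gave 4754 and 5152 in control and 5741 and 6876 in BIO. Gata1, the erythroid GATA factor, had -0.23 (adjusted p = 0.231, limma) at dim signals of 28.0 to 47.0.

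Markers of the compartments of the ureter itself were also lower in part, against 14.8% of all tested genes that fell. Of 10 ureteric mesenchyme markers 6 fell, led by Pdgfrb (-2.17), Col3a1 (-0.91), Pdgfra (-0.79) and Vim (-0.56), with a median of -0.48. Tbx18 (-0.22), Foxf1 (-0.16), Tcf21 (-0.32) and Ptch1 (0.08) did not pass the test. Foxf1 had opposite signs on the arrays, with -0.80 on array 1 and 0.48 on array 2, and its second probe gave -0.51 and 0.22. Ptch1 had 0.32 and -0.17, so the direction of neither gene is settled. Of 10 ureteric epithelium markers 7 fell, led by Foxa1 (-2.17), Krt19 (-1.24), Cdh1 (-1.04) and Krt8 (-0.91), with a median of -0.80. Epcam (0.02), Gata3 (-0.10) and Cldn4 (-0.12) did not pass. Pdgfrb, known from pericytes that wrap vessels as well as from mesenchyme, was the only one of these mesenchyme markers at least 2-fold lower on both arrays. What part these compartments have in the fall of the 10 genes was not tested.

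Promoter sequences were at hand for 4 of the 10 genes, with 8 start sites in all (Erg, Tal1, Lyl1 and Gata2; RefSeq, GRCm38.p6). The 250 bases before each start were searched on both strands for 5 motifs, none of which contains another. The ETS site was searched as CCGGAA and was in 1 of these 8 windows, against 12.0% of all 32851 promoters of the table. The GATA site was searched as AGATAA and was in 2, against 9.99%. The SOX core was searched as ACAAT and was in 2, against 27.7%. The TCF/LEF site, the DNA-bound end of WNT signaling, was searched as ATCAAAG and was in 0, against 3.21%. The E-box was searched as CANNTG and was in 2, against 66.2%. Lyl1 and Tal1 are shown because they are paralogs whose ratios lay apart on both arrays. Capitals mark the ETS site on either strand in Lyl1 and the GATA site on the other strand in Tal1. A match is a string of letters and not a shown site.
Lyl1, chr8:84701207-84701456, + strand: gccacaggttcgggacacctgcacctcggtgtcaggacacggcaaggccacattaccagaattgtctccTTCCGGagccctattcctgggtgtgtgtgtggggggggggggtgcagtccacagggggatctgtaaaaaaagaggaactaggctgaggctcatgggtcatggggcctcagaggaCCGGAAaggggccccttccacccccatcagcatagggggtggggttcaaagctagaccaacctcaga
Tal1, chr4:115056176-115056425, + strand: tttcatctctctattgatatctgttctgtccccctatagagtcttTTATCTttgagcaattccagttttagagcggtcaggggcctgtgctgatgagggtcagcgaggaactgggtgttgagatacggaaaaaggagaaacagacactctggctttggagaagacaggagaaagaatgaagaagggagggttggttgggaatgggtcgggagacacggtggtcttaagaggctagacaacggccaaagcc
The matches in Lyl1 began 181 and 67 bases before the start, and the match in Tal1 began 205 bases before the first of its 2 starts, while its second start held none of the 5 motifs.

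**Figure D5:**
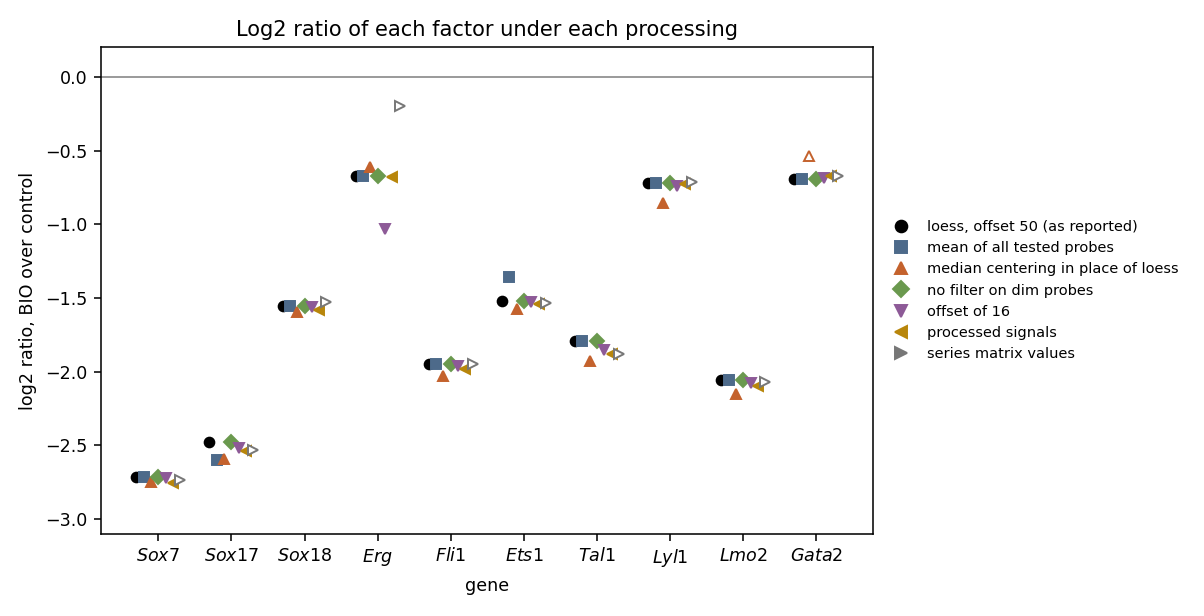
Mean log2 ratio of BIO over control of the 10 genes under the processing reported and 6 alternatives, with filled markers for an adjusted p below 0.05 (limma) and open markers otherwise. All values are below 0, those of Erg range from -1.03 to -0.20, and open markers are Gata2 under median centering and all genes with the series matrix values.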

How the data were processed

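Per the file headers, the authors scanned 2 two-color Agilent arrays and read them with Feature Extraction 10.7.3.1. The deposited intensities are mean spot and median local background values, left uncorrected, and processed signals, which were background-subtracted, detrended and dye-normalized. Each biological probe was spotted 4 times. The deposited score table holds 1 signed fold per probe and array, rounded, whose centering is unknown (column median 1 on both arrays, Spearman correlation across probes with the processed log2 ratios of 0.978 and 0.976).

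In limma 3.58.1 (R 4.3.3), intensities were corrected by normexp (offset 50) and normalized by loess within each array. Outlier spots (3.49% and 3.16%) were left out, and 0 spots were saturated. Tested probes (28824) had over a share of 0.5 of their spots well above background in 1 group on both arrays, and lmFit with eBayes tested the 2 ratios against 0, two-sided, with Benjamini-Hochberg adjustment. The prior had 7.14 degrees of freedom. A gene took its brightest tested probe. The 2-fold rule used processed signals with a floor of 15, centered on each array's median. All 10 factors were named, and of each list the genes past the threshold with the 4 largest ratios, with every such gene of the ETS and partner lists. Vwf, Prox1, Tcf3, Tcf4, Ldb1, Gata1 and Gata3 were named beside the rule after their values were seen. So were the macrophage, mesenchyme and epithelium markers that did not pass. The genes and lists were chosen with earlier results of these data known. The list of nerve cell markers is not reported here. The steps were tested on simulated data. Slide and scan were shared by both arrays. Precision is limited by having 2 arrays, with a median SE of 0.111.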

Additional observations from a re-analysis of the deposited data

How the results depend on the processing

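The 10 genes were fallen in the limma test with the processed signals, an offset of 16, no filter on dim probes and the mean of all tested probes, and 9 of 10 with median centering, where Gata2 was lost. With the series matrix values the count was 0, although all 10 ratios were below 0. At that setting 4748 of 21598 genes had the same rounded value on both arrays, and the prior had 0.426 degrees of freedom, and 1320 genes fell in all. The median over the 10 genes was -1.76 to -1.68 over these 6 alternatives and -1.83 to -1.54 when either array was left out, which leaves 1 array and no test. Passing the 2-fold rule were 7 genes with either array alone or with no minimum intensity, 8 at 1.5-fold and 5 at 3-fold. Over the 6 alternatives Erg moved most of the 10 genes, from -1.03 with an offset of 16 to -0.20 with the series matrix values, and with either array alone Sox7 moved most, from -3.35 to -2.08. No ratio of the 10 genes was reversed. Of the 79 other genes called in the lists, 0 were reversed under the 6 alternatives, and 73 lost their call under at least 1 of them, 72 of them with the series matrix values. Each array pairs 1 BIO pool with 1 control pool, so the test of the ratios is itself paired.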
